A study of Mus musculus with 198 samples.

Results

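De novo lipogenesis, the synthesis of fatty acids from carbohydrate carbon, was followed through 10 genes across 9 mouse tissues. The members were 7 enzymes (*Acly*, *Acaca*, *Fasn*, *Me1*, *Elovl6*, *Scd1* and *Scd2*) and 3 regulators (*Srebf1*, *Mlxipl* and *Thrsp*). They were chosen by gene name, and all 10 were found among the 56332 features counted. C57BL/6 mice had received an anti-PAPP-A antibody (aPAPPA) or a control antibody for 17 weeks. PAPP-A is a protease that cleaves insulin-like growth factor binding proteins and so raises free insulin-like growth factor. There were 10 aPAPPA mice (5 females and 5 males) and 12 control mice (6 females and 6 males), and each of the 22 mice gave 1 library of every tissue: bone marrow, spleen, liver, kidney, lung, heart, skin, gonadal fat and subscapular fat, a subcutaneous depot. The sources used here do not state the age or diet of the mice, the dose or clone of the antibody, or what the control antibody binds. Whole tissues were extracted, so each library mixes the RNA of all cell types of the piece taken, and fewer cells of a type cannot be told apart from less RNA per cell.

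As background, ATP citrate lyase makes cytosolic acetyl-CoA from citrate, acetyl-CoA carboxylase turns it into malonyl-CoA, and fatty acid synthase joins these units into palmitate with NADPH that malic enzyme 1 helps to supply. ELOVL6 lengthens palmitate to stearate, and the stearoyl-CoA desaturases SCD1 and SCD2 place a double bond in these chains. SREBP-1, made from *Srebf1*, carries the insulin signal and ChREBP, made from *Mlxipl*, the glucose signal to the promoters of these enzymes. THRSP (Spot 14) is a small protein of lipogenic tissues whose gene responds to thyroid hormone and carbohydrate. Liver and adipose tissue are the classical sites of the pathway in the mouse.

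On mm10, with the GENCODE vM21 annotation, 4 members lie on chromosome 11. *Fasn* spans chr11:120805846-120824547 on the minus strand, *Acaca* chr11:84129672-84401651 on the plus strand, *Acly* chr11:100476353-100528000 on the minus strand and *Srebf1* chr11:60199089-60222581 on the minus strand. *Scd1* (chr19:44394455-44407879, minus strand) and *Scd2* (chr19:44293674-44306864, plus strand) are neighbouring paralogs on chromosome 19. Their coding sequences are alike, so reads may have been divided between them and a low value of one beside a high value of the other is uncertain. *Elovl6* lies at chr3:129532355-129638495 (plus strand), *Mlxipl* at chr5:135089890-135138382 (plus strand), *Me1* at chr9:86581371-86695953 (minus strand) and *Thrsp* at chr7:97412938-97417730 (minus strand).

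Promoter windows, 250 bases before to 50 bases after a start, were found in RefSeq (GRCm38.p6) for 8 members, in 12 windows; *Scd1* and *Scd2* were not matched. Each window was searched on both strands for a sterol regulatory element, an NF-Y box (CCAAT) and an E-box (CACGTG). The sterol element was in 0 of the 12 windows and in 0.234% of the 32851 windows of all genes. A string this rare would hardly be met in 12 windows, and other forms of the element were not searched, so its absence says little. The NF-Y box was found in 7 of the 12 windows, those of 6 members, against 37.4% of all windows, and the E-box in 1 of the 12, that of *Mlxipl*, against 7.15% of all windows. The 250 bases before the start are shown for *Fasn* and *Thrsp*, whose levels ran closely together in both fat depots, and for *Mlxipl*, the member with the E-box. Capitals mark the matches, read 5′ to 3′ on the strand of the gene at chr11:120824548-120824797 (*Fasn*, minus), chr7:97417551-97417800 (*Thrsp*, minus) and chr5:135089640-135089889 (*Mlxipl*, plus).
Fasn: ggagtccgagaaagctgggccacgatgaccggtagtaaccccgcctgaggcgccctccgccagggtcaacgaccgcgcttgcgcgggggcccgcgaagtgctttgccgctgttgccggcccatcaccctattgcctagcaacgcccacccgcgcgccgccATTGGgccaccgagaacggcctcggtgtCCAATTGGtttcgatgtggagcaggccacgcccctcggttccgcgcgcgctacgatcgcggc
Thrsp: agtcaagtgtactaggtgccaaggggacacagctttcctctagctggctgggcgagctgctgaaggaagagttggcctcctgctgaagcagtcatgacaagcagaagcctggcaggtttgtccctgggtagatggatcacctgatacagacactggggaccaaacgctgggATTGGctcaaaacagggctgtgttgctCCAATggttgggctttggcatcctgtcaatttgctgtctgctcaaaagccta
Mlxipl: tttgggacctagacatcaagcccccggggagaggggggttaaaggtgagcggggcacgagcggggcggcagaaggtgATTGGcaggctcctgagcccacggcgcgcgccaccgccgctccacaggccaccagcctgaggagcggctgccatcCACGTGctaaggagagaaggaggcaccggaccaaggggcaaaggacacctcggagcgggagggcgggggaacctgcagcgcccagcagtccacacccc
In *Fasn* the NF-Y box starts at -90, -62 and -59 from the start site, and the last 2 matches overlap on opposite strands. *Thrsp* holds the box at -79 and -52, and *Mlxipl* holds it at -173 with the E-box at -98. A match is a stretch of letters in a window and not a measured binding site.

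Levels are given as CPM, counts scaled to a common total of the counts outside 9 very abundant features, most of them ribosomal RNA, which took 47.39 to 99.5% of a library (median 87.43%). The counts left for all other genes numbered 33377 to 4694597 per library (median 1099966.5). The markers of the labelled tissue were checked in every library, and 5 libraries stood apart by falling more than 2 log2 units below their tissue's median or by having fewer than 1000 genes with at least 10 counts. In heart, aPAPPA male 56 and control female 22 held brown fat RNA: the summed CPM of 4 brown adipocyte markers (*Ucp1*, *Cidea*, *Otop1*, *Elovl3*) was 892 and 4217, against a median of 15.2 in control hearts. The hearts of aPAPPA male 58 and control male 61 had brown sums of 361 and 232 CPM but did not fall under the rule above. The lung library of control male 68 had an adipocyte marker sum (*Adipoq*, *Plin1*, *Cidec*, *Adig*, *Lep*, *Retn*) of 5183 CPM and a lung epithelial marker sum of 8.51 CPM. The gonadal fat library of aPAPPA male 58 had an adipocyte sum of 900 and a macrophage sum of 4030 CPM. In the skin library of aPAPPA female 36, 308 genes had 10 counts or more. Results that rest on these libraries are given with and without them.

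Subscapular fat and liver, in either order, led the control medians of every member except *Scd2*. Gonadal fat came next for *Fasn*, *Acaca*, *Scd1* and *Thrsp*. For the other members lung, skin or kidney had a higher median than gonadal fat. In control mice *Fasn* had a median of 8411 CPM in subscapular fat (1896 to 43257), 5022 in liver (2436 to 14536), 1187 in gonadal fat, 926 in lung, 557 in skin, 179 in spleen, 125 in kidney, 50.5 in heart and 37.2 in bone marrow (12 mice each). *Acaca* ran in nearly the same order, at 2038 CPM in subscapular fat, 1330 in liver, 473 in gonadal fat, 281 in lung, 242 in skin, 114 in spleen, 88.1 in kidney, 84.9 in bone marrow and 52.1 in heart. *Acly* was at 1953 CPM in liver, 1162 in subscapular fat, 333 in lung, 329 in gonadal fat, 292 in skin, 264 in kidney, 199 in spleen, 122 in bone marrow and 47.0 in heart. These 3 genes make the palmitate core of the pathway, and each had its lowest medians in bone marrow and heart.

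*Me1*, the NADPH supplier, had control medians of 571 CPM in liver, 419 in subscapular fat, 242 in kidney, 197 in gonadal fat, 105 in skin, 77.4 in lung, 65.2 in heart, 4.94 in spleen and 1.02 in bone marrow. Kidney thus ranked higher for *Me1* than for any of the palmitate enzymes. *Elovl6* was at 933 CPM in liver, 363 in subscapular fat, 235 in skin, 41.4 in gonadal fat, 36.4 in kidney, 23.9 in lung, 12.9 in spleen, 12.2 in bone marrow and 2.93 in heart. Of the desaturases, *Scd1* was at 13734 CPM in subscapular fat, 11166 in liver, 7251 in gonadal fat, 1735 in lung, 883 in skin, 399 in kidney, 395 in spleen, 76.0 in bone marrow and 49.4 in heart. *Scd2* had a different order, with 866 CPM in lung, 347 in subscapular fat, 336 in skin, 261 in gonadal fat, 161 in spleen, 124 in kidney, 55.5 in bone marrow, 37.4 in heart and 21.0 in liver. Liver was thus second for *Scd1* and last for *Scd2*.

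Among the regulators, *Srebf1* covered the narrowest range, with control medians of 315 CPM in liver, 310 in subscapular fat, 235 in skin, 202 in gonadal fat, 109 in lung, 71.6 in spleen, 58.6 in kidney, 33.5 in bone marrow and 31.1 in heart. *Mlxipl* was at 246 CPM in liver, 126 in subscapular fat, 96.0 in kidney, 43.3 in gonadal fat, 20.6 in heart, 10.9 in lung, 7.99 in bone marrow, 7.12 in skin and 6.85 in spleen. *Thrsp* was at 503 CPM in subscapular fat, 498 in liver, 177 in gonadal fat, 15.1 in lung, 11.1 in heart, 4.48 in kidney, 2.67 in spleen and 1.23 in skin, with a median of 0 in bone marrow. It was the member most restricted to fat and liver.

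**Figure D1:**
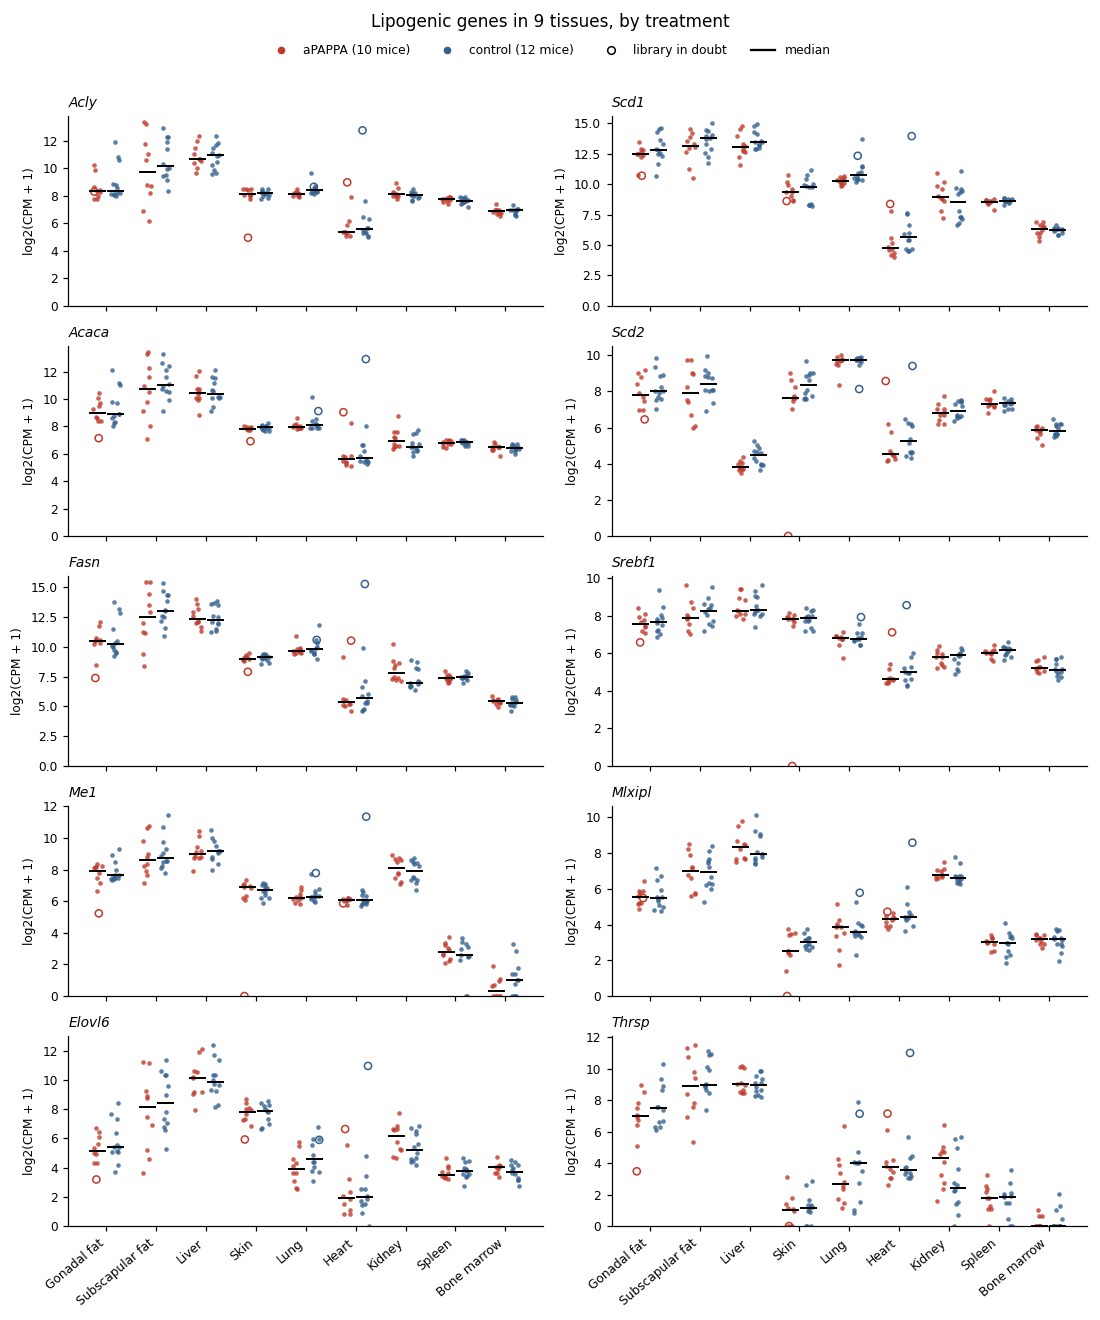
Level of each member, as log2(CPM + 1), in the 9 tissues, 1 panel per gene; each point is a library, aPAPPA left and in red, control right and in blue, bars are medians and open circles mark the 5 libraries that stood apart. Most members peak in subscapular fat and liver, *Scd2* is highest in lung (control median 866 CPM) and lowest in liver (21.0 CPM), and the arms overlap in each tissue.

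All pairs of tissues were compared in the control libraries (12 per tissue) with edgeR's quasi-likelihood test and Benjamini-Hochberg adjustment, and 289 of the 360 member contrasts passed 0.05, against 62.4% of all gene contrasts. The top pair of tissues did not pass for 8 members in this fit. *Fasn* differed by 0.82 log2 units in subscapular fat over liver (SE 0.63, adjusted p = 0.266) and *Scd1* by -0.40 (SE 0.58, adjusted p = 0.588), while *Acaca*, *Acly*, *Me1* and *Thrsp* had adjusted p-values of 0.237, 0.994, 0.634 and 0.527 for subscapular fat against liver. *Elovl6* in liver over subscapular fat (1.02, adjusted p = 0.157) and *Scd2* in lung over subscapular fat (0.64, adjusted p = 0.0635) also missed the threshold, and both passed it without the libraries that stood apart (1.21, adjusted p = 0.0137, and 0.71, adjusted p = 0.0078) and with the mouse as a block (1.43, adjusted p = 0.0376, and 0.74, adjusted p = 0.0206). Liver exceeded subscapular fat for *Srebf1* by 0.60 (SE 0.25, adjusted p = 0.0352) and for *Mlxipl* by 1.52 (SE 0.32, adjusted p = 2.847e-05). Subscapular fat had the highest median of *Fasn*, *Acaca*, *Scd1* and *Thrsp* on the CPM scale used here, but with library sizes scaled by TMM over all tissues liver had the highest median for all 4.

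Further down the order, liver exceeded gonadal fat for *Fasn* (1.74, SE 0.64, adjusted p = 0.0148), *Acaca* (1.42, SE 0.50, adjusted p = 0.0106) and *Thrsp* (1.51, SE 0.63, adjusted p = 0.0341), but not for *Scd1* (1.08, SE 0.59, adjusted p = 0.108), which passed without the libraries in doubt (1.10, adjusted p = 0.0107) and with the mouse as a block (1.32, adjusted p = 0.0255). Spleen and kidney did not differ beyond their spread for *Fasn* (-0.55, SE 0.63, spleen over kidney), *Acaca* (-0.42, SE 0.50), *Scd2* (-0.07, SE 0.30) or *Srebf1* (0.01, SE 0.27). Skin and gonadal fat did not differ for *Scd2* (0.07, SE 0.30) or *Srebf1* (-0.08, SE 0.26). *Scd2* in gonadal fat exceeded spleen by 1.37 (SE 0.31, adjusted p = 4.897e-05). The heart's place depends on control female 22 for most members. With all libraries heart exceeded bone marrow for *Acaca*, *Acly*, *Scd1*, *Scd2*, *Elovl6* and *Srebf1*, and the bone marrow over heart difference was -3.30 for *Acaca* and -4.48 for *Scd1*. Without the libraries in doubt these were -0.52 (adjusted p = 0.159) and -0.55 (adjusted p = 0.203), and *Acly* (0.27), *Scd2* (-0.26) and *Elovl6* (0.48) did not pass either. *Srebf1* still passed, at -0.56 (adjusted p = 0.0145) against -1.27 with all libraries, as did *Fasn* in heart over bone marrow, at 2.36 (adjusted p = 3.77e-06) against 6.54. The heart of control male 61, with 944 CPM of *Fasn* and a brown sum of 232 CPM, stayed in these fits. Control medians of *Fasn* were 50.5 CPM in heart and 37.2 CPM in bone marrow, and the contrast without that heart is not given here. *Fasn* in kidney over heart was at 0.27 (adjusted p = 0.641) without the libraries in doubt, against -3.91 with all libraries. *Scd2* in heart over liver kept its direction, at 1.81 (adjusted p = 1.024e-06) with all libraries and 0.91 (adjusted p = 0.0018) without.

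Per kilobase of exon, *Scd1* was the most abundant member in control liver, at a median of 2283 CPM per kb. *Fasn* followed at 459, *Acly* at 370, *Thrsp* at 228, *Me1* at 149, *Elovl6* at 145, *Acaca* at 77.9, *Srebf1* at 55.9, *Mlxipl* at 44.5 and *Scd2* at 3.85 CPM per kb. Subscapular fat had *Scd1* at 2807, *Fasn* at 768, *Thrsp* at 230, *Acly* at 220 and *Scd2* at 63.4 CPM per kb. In lung, *Scd1* (355 CPM per kb) still stood above *Scd2* (159 CPM per kb), so the lung's rank for *Scd2* is a rank among tissues and not among desaturases.

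The genes most like each member over the control libraries of all 9 tissues, by Pearson's r of log2(CPM + 1) among 17172 genes, were other members for some and not for others. *Fasn* was closest to *Acaca* (0.97), *Scd1* (0.94) and *Acly* (0.93), *Elovl6* to *Acly* (0.90) and *Srebf1* to *Fasn* (0.91). For *Mlxipl*, *Me1*, *Thrsp* and *Scd2* none of the 3 closest genes was a member. The third gene for *Acly* was *Slc25a1* (0.91), which encodes the mitochondrial citrate carrier. *Mlxipl* was closest to *Acss2* (0.92), a cytosolic acetyl-CoA synthetase, and *Gys2* (0.90), liver glycogen synthase. *Me1* was closest to *Pcx* (0.89), *Pex11a* (0.89) and *Ghr* (0.89), *Thrsp* to *Mrap* (0.92), *Klb* (0.92) and *Amy1* (0.92), and *Scd2* to *Gnb1* (0.88), *Aff4* (0.83) and *Myof* (0.83). These coefficients run over 9 tissues of 12 mice and describe tissue pattern. The libraries share mice and tissues and are not independent.

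Within a tissue, mice with more *Fasn* also had more of nearly every other member. The correlation was taken over the 22 mice after removing the mean of each sex and arm, in liver, gonadal fat and subscapular fat (27 relations, permutation within sex and arm, Benjamini-Hochberg over the 27). In subscapular fat, where *Fasn* ranged from 346 to 43774 CPM in aPAPPA mice and from 1896 to 43257 CPM in control mice, it tracked *Acaca* (r = 0.99, rho = 0.99), *Thrsp* (r = 0.99, rho = 0.99), *Acly* (r = 0.98, rho = 0.96) and *Elovl6* (r = 0.94, rho = 0.87). *Scd1* (r = 0.74, rho = 0.78), *Srebf1* (r = 0.73, rho = 0.81) and *Scd2* (r = 0.82, rho = 0.83) followed it less closely. All 9 relations of subscapular fat passed, and *Scd1* had r = 0.70 after leaving out the 2 mice farthest from the *Fasn* median. The pieces of this depot differed in brown fat RNA, with *Ucp1* from 0 to 9664 CPM. How far such differences in composition make up these correlations was not tested.

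In liver the pairs were *Acly* (r = 0.93, rho = 0.91), *Acaca* (r = 0.89, rho = 0.89), *Thrsp* (r = 0.87, rho = 0.89), *Srebf1* (r = 0.86, rho = 0.85), *Me1* (r = 0.86, rho = 0.84), *Elovl6* (r = 0.86, rho = 0.90) and *Mlxipl* (r = 0.74, rho = 0.74). Hepatic *Scd1* was looser (r = 0.57, rho = 0.65, adjusted permutation p = 0.0245, r = 0.59 without the 2 farthest mice). Hepatic *Scd2* did not pass (r = 0.12, rho = 0.14, adjusted permutation p = 0.645), the one relation of the 27 that missed the threshold. It rests on few counts, a median of 17 (lowest 4), against medians of 342 in gonadal and 471.5 in subscapular fat. Whether the low counts weaken this correlation was not tested. In gonadal fat *Thrsp* (r = 0.97, rho = 0.95), *Acaca* (r = 0.93, rho = 0.92) and *Scd2* (r = 0.89, rho = 0.89) were the closest. Gonadal *Acly* (r = 0.78) and *Mlxipl* (r = 0.76) split by sex, with r = 0.92 and 0.95 in females but 0.26 and 0.25 in males. Without the library of aPAPPA male 58 the male values were 0.52 and 0.77.

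**Figure D2:**
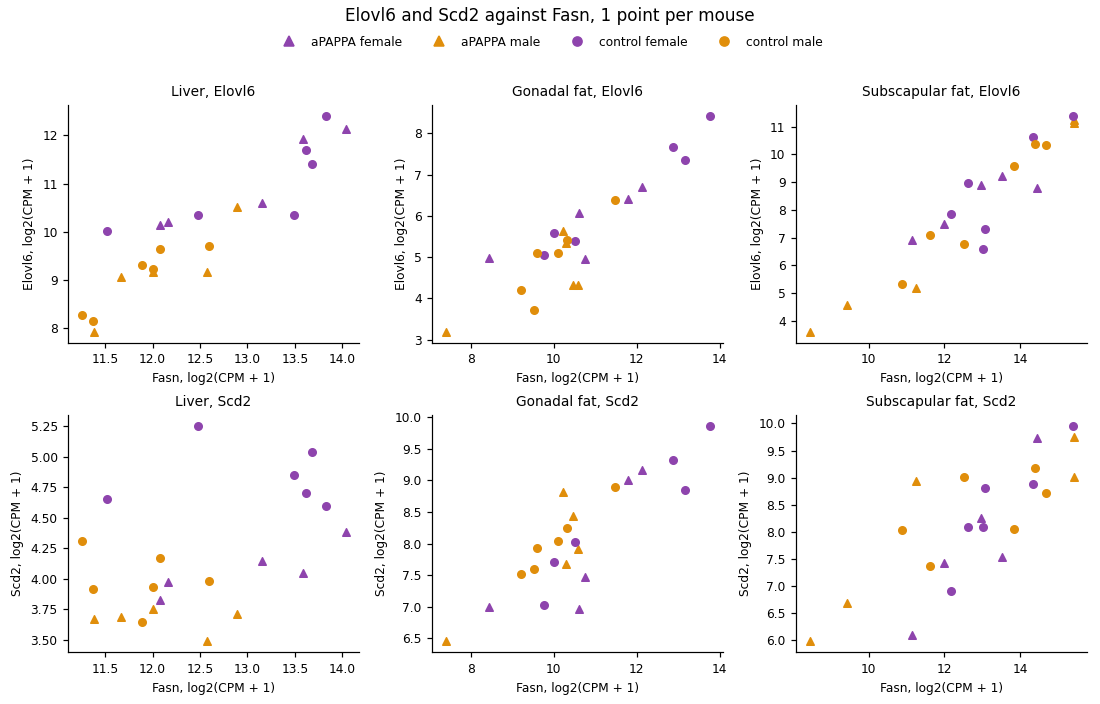
*Elovl6* (top) and *Scd2* (bottom) against *Fasn*, all as log2(CPM + 1), in liver, gonadal fat and subscapular fat; each point is a mouse, marked by arm and sex. *Elovl6* climbs with *Fasn* in all 3 tissues (r of 0.86, 0.87 and 0.94 after removing sex and arm means), and *Scd2* does so in both fat depots (0.89 and 0.82) but not in liver (0.12). Hepatic *Scd2* rests on a median of 17 counts.

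The antibody's effect on the members was tested in each tissue with edgeR's quasi-likelihood test, with sex as a covariate and adjustment over all genes tested. No member passed an adjusted p of 0.05 in any of the 9 tissues, and hardly any other gene did: 0.00776% of the 12891 genes tested passed in bone marrow (1 gene) and 0% in each of the other tissues. All 10 members were testable in both fat depots, liver and lung, 9 in heart (not *Elovl6*) and kidney (not *Thrsp*), 8 in skin (not *Mlxipl* or *Thrsp*) and bone marrow (not *Me1* or *Thrsp*) and 7 in spleen (not *Me1*, *Mlxipl* or *Thrsp*). At an unadjusted p of 0.05 there were 3 members in lung, 2 in heart, 2 in kidney, 1 each in liver, gonadal fat and skin, and 0 in subscapular fat, spleen and bone marrow. Over all genes tested that number lay between 259 of 11019 in subscapular fat and 866 of 12886 in lung. It is not given for the other tissues, so their member counts cannot be set beside a share of all genes. DESeq2 called 0 members in every tissue as well, although it gave an adjusted p to 1 member in bone marrow and to 0 in heart.

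The intervals show what size of change these samples leave possible. Hepatic *Fasn* had 2659, 5341 and 16780 CPM (lowest, median and highest) in aPAPPA mice, against 2436, 5022 and 14536 CPM in control mice, and the arms covered the same range. The log2 fold change was 0.12 (95% interval -0.49 to 0.73). Subscapular *Fasn* had 346, 6039 and 43774 CPM in aPAPPA mice and 1896, 8411 and 43257 CPM in control mice, a log2 fold change of 0.07 with an interval of -1.49 to 1.62. In subscapular fat the spread among mice of 1 arm was therefore wide enough to hide a change of 2-fold in either direction.

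Hepatic *Scd2* was the member with the smallest p. It had 10.2, 12.8 and 19.9 CPM in aPAPPA livers, against 11.5, 21.0 and 37.2 CPM in control livers. Among females the arms did not overlap, with 13.2, 15.5 and 19.9 CPM in aPAPPA and 23.2, 26.5 and 37.2 CPM in control livers, and among males they did, with 10.2, 11.9 and 12.5 CPM in aPAPPA and 11.5, 14.5 and 18.8 CPM in control livers. The female values rest on few counts, a median of 8 (lowest 4) in aPAPPA and 20.5 (lowest 12) in control livers. How many of all genes separate the arms in this way is not given here. The log2 fold change was -0.60 (SE 0.15, 95% interval -0.90 to -0.29, unadjusted p = 0.000375, edgeR adjusted p = 1). Leaving out any 1 mouse kept it between -0.64 and -0.52, and DESeq2 gave -0.61 (unadjusted p = 0.0011). The estimate was -0.87 within females and -0.30 within males, and the difference between the sexes, female minus male, was -0.57 (unadjusted p = 0.0527). Liver held far more *Scd1* than *Scd2*, and *Scd1* had 3098, 8274 and 27300 CPM in aPAPPA livers against 7328, 11166 and 30390 CPM in control livers (log2 fold change -0.24, SE 0.34). How far reads of *Scd1* entered the *Scd2* value was not tested.

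In gonadal fat all 10 members had negative log2 fold changes, from -0.91 to -0.16 with a median of -0.65, against a median of -0.0003 over all 11993 genes. The members rose and fell together among these mice, with r of 0.76 to 0.97 against *Fasn*. Their 10 signs are therefore not 10 separate results. Without the library of aPAPPA male 58 all 10 stayed negative (median -0.59). The lowest was *Scd1* at -0.91 (unadjusted p = 0.0422), with 1646, 5668 and 11399 CPM in aPAPPA mice and 1626, 7251 and 25212 CPM in control mice. The arms overlapped over most of that range, with the highest libraries among the controls. *Fasn* had 167, 1463 and 4482 CPM in aPAPPA mice and 592, 1187 and 13836 CPM in control mice, so that its aPAPPA median was the higher one while its fitted change was -0.74 (unadjusted p = 0.182). Within females the members' median was -0.98 and within males -0.12.

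Lung members were also all negative, with a median of -0.41 against -0.0026 over all genes. These signs come from the same lungs and are not separate results either. *Scd1* had 923, 1209 and 1661 CPM in aPAPPA lungs, against 1144, 1735 and 13534 CPM in control lungs, and the control range reached far above the aPAPPA one. Its log2 fold change was -1.19 (SE 0.38, unadjusted p = 0.0047, adjusted p = 0.728), and -1.13 without the library of control male 68. The adipocyte marker sum in the same lungs was 9.46, 17.5 and 292 CPM in aPAPPA and 7.48, 31.3 and 5183 CPM in control mice. Fitted at equal adipocyte marker level, *Scd1* was at -0.63 (unadjusted p = 0.0195), *Elovl6* at -0.61 where it had been -1.02, and *Fasn* at -0.06 where it had been -0.40.

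In kidney 8 of 9 members had positive log2 fold changes. The share of all kidney genes with a positive change is not given here, so that count alone cannot be weighed. *Fasn* had 143, 236 and 1225 CPM in aPAPPA kidneys and 80.8, 125 and 488 CPM in control kidneys, a log2 fold change of 0.79 (unadjusted p = 0.0857). *Elovl6* had 93.0, 99.8 and 213.5 CPM in aPAPPA females against 41.6, 83.0 and 117.3 CPM in control females, and 24.4, 35.3 and 52.1 CPM in aPAPPA males against 17.3, 22.0 and 31.1 CPM in control males. Its log2 fold change was 0.55 (SE 0.18, unadjusted p = 0.0066, adjusted p = 1). The arms overlapped in both sexes. In the same kidneys the brown adipocyte marker sum was 1.59, 67.9 and 332 CPM in aPAPPA mice and 0, 0.924 and 98.8 CPM in control mice, and the adipocyte sum was 18.4, 81.5 and 253 CPM in aPAPPA mice and 9.86, 47.3 and 742 CPM in control mice. At equal adipocyte marker level *Fasn* was at 0.61 (unadjusted p = 0.0138) and *Elovl6* at 0.49 (unadjusted p = 0.0128), with adjusted p-values of 1. With both marker levels in the fit, *Fasn* was at 0.16 (unadjusted p = 0.535) and *Elovl6* at 0.28 (unadjusted p = 0.168). Renal *Mlxipl* was at 0.50 within males (unadjusted p = 0.000558, adjusted p = 0.359) and -0.20 within females, and the difference, female minus male, was -0.69 (unadjusted p = 0.0269, adjusted p = 0.982).

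Heart gave the largest negative estimates, and they rest on 2 libraries. *Fasn* had 23.8, 39.8 and 1476 CPM in aPAPPA hearts and 23.7, 50.5 and 39812 CPM in control hearts, where the highest values were those of aPAPPA male 56 and control female 22. Its log2 fold change was -2.29 (SE 2.28) with them and -0.37 (SE 0.69) without them. The members' median was -1.46 with them and -0.26 without. *Me1* was at -1.42 with them (unadjusted p = 0.0468) and at 0.0056 without them, and *Mlxipl* was at -1.20 with them (unadjusted p = 0.0267) and -0.37 without (unadjusted p = 0.138). In skin *Scd2* was at -0.63 (unadjusted p = 0.0458) and at -0.56 without the library of aPAPPA female 36 (unadjusted p = 0.0562). Spleen and bone marrow members stayed close to 0, with medians of -0.09 and -0.01.

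**Figure D3:**
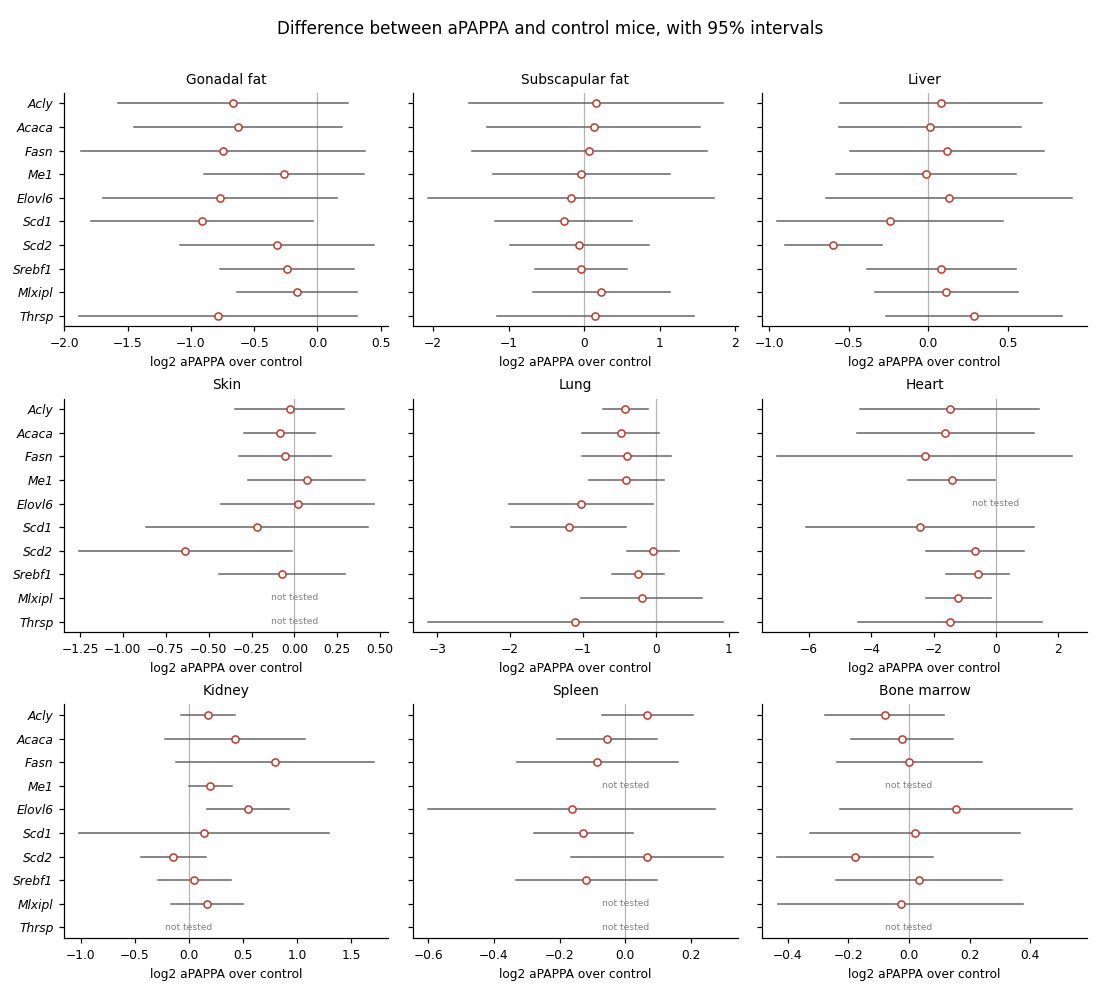
Log2 fold change of each member, aPAPPA over control, with its 95% interval in each tissue (edgeR, sex as covariate); open symbols are values that did not pass an adjusted p of 0.05, which here is every value. Intervals are narrow in spleen and bone marrow, wide in subscapular fat and heart, and hepatic *Scd2* (-0.60) lies clear of 0 before adjustment.

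Averaged over the 9 tissues of each mouse and tested with limma, 0 of the 6458 genes measured in every tissue passed (0%), and 243 had an unadjusted p under 0.05. Of the 6 members in that test, *Scd1* was at -0.34 log2 units (unadjusted p = 0.0424), *Scd2* at -0.36 (unadjusted p = 0.058), *Acly* at -0.19, *Acaca* at -0.17, *Fasn* at -0.16 and *Srebf1* at -0.15. The sex by treatment term called 0 members in every tissue, with 0.00835% of all genes called in spleen and 0% elsewhere. In heart the members' differences between the sexes reached -8.12 (*Fasn*, female minus male, unadjusted p = 0.0041). The hearts in doubt were those of aPAPPA male 56 and control female 22, and *Fasn* was at -0.49 (unadjusted p = 0.734) without them. The hearts of aPAPPA male 58 and control male 61, which also held brown marker RNA, stayed in that fit.

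A wider list of 24 lipogenic genes that are not members gave the same count. By edgeR 0 of them passed in any tissue, with 17 to 22 testable. The smallest p-values were those of *Pgd*, the NADPH-making 6-phosphogluconate dehydrogenase, in bone marrow (-0.21, unadjusted p = 0.000937) and *Dgat2*, an acyltransferase of triglyceride synthesis, in bone marrow (-0.44, unadjusted p = 0.0026).

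Several members differed between the 11 female and the 11 male mice. In liver 6 of the 10 members were higher in females, where 15.3% of the 8897 genes tested were higher in females and 28.2% differed in either direction. *Elovl6* had 1030, 1552 and 5387 CPM in female livers and 243, 578 and 1469 CPM in male livers. Its log2 fold change, female over male, was 1.92 (SE 0.38, adjusted p = 0.0011). *Fasn* had 2933, 11526 and 16780 CPM in female livers against 2436, 4104 and 7609 CPM in male livers (1.10, SE 0.29, adjusted p = 0.0092). *Acaca* had 1084, 2270 and 4431 CPM in female livers against 460, 1096 and 1740 CPM in male livers (1.17, adjusted p = 0.0039). The female and male ranges overlapped for each of these enzymes, and for *Fasn* and *Acaca* the male median lay within the female range.

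*Acly* was higher by 0.97 in female livers (adjusted p = 0.0228), with 918, 2794 and 5208 CPM in females and 754, 1312 and 2801 CPM in males. It lost the threshold when 1 of the 22 mice, mouse 9, was left out (adjusted p = 0.0538). *Mlxipl* was higher by 1.23 (adjusted p = 0.000331), with 247, 501 and 1120 CPM in females and 164, 202 and 369 CPM in males. *Scd2* was higher by 0.66 (adjusted p = 0.0011), with 13.2, 23.2 and 37.2 CPM in females and 10.2, 12.5 and 18.8 CPM in males. The other 4 had positive estimates that did not pass: *Scd1* at 0.78 (adjusted p = 0.093), *Me1* at 0.65 (adjusted p = 0.0776), *Srebf1* at 0.53 (adjusted p = 0.0787) and *Thrsp* at 0.43 (adjusted p = 0.235). Of the transcription factors, ChREBP's gene thus passed and SREBP-1's did not, and whether these 2 sex differences differ from each other was not tested. The hepatocyte marker sum was 53819, 88916 and 133182 CPM in female livers and 71550, 82676 and 99562 CPM in male livers.

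Of the 22 wider pathway genes tested in liver, 7 were higher and 3 lower in females. *Pnpla3*, a lipid droplet hydrolase, was higher by 2.62 (adjusted p = 0.0001583), *Lpin1*, a phosphatidate phosphatase, by 1.11 (adjusted p = 2.956e-06) and *Acacb*, the mitochondrial form of acetyl-CoA carboxylase, by 1.17. *Scap*, the escort that carries SREBPs to the Golgi, was higher by 0.70 (adjusted p = 0.0031). *Insig2*, which holds SREBPs in the endoplasmic reticulum, was at -1.07 (adjusted p = 0.0012).

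In gonadal fat 5 of the 10 members were higher in females, against 6.35% of all genes higher and 14.8% differing in either direction. *Fasn* had 347, 1731 and 13836 CPM in females and 167, 1192 and 2868 CPM in males (1.70, SE 0.55, adjusted p = 0.0388), and the ranges overlapped up to 2868 CPM. *Elovl6* had 30.2, 66.7 and 342 CPM in females and 8.13, 33.2 and 83.3 CPM in males (1.65, adjusted p = 0.0156). *Acaca* was higher by 1.63 (adjusted p = 0.0087), *Acly* by 1.54 (adjusted p = 0.0224) and *Mlxipl* by 0.90 (adjusted p = 0.0105). These calls were less firm than those in liver. *Fasn* kept its call in 11 of the 22 fits that left out 1 mouse, with adjusted p-values of 0.0552 to 0.0766 in the others, and was at 1.61 (adjusted p = 0.0597) without the library of aPAPPA male 58. *Acly* lost its call without mouse 6 (adjusted p = 0.052).

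In gonadal fat *Scd1* (0.37), *Scd2* (0.47) and *Thrsp* did not pass, and *Thrsp* was at 1.37 (adjusted p = 0.0858). The adipocyte marker sum was 3161, 7011 and 9505 CPM in female and 900, 5569 and 9122 CPM in male gonadal fat, and the macrophage sum was 807, 1890 and 2499 CPM in females and 1376, 2740 and 4030 CPM in males. Their part in the sex difference was not tested. Of 21 wider pathway genes, *Gpam*, which starts glycerolipid synthesis, passed at 1.58 (adjusted p = 0.0001461).

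Kidney had 2 members higher and 1 lower in females of 9 tested, where 13.1% of all genes were higher and 12.8% lower (25.9% in all). With so few members these counts do not set them apart from all genes. *Me1* had 105, 162 and 216 CPM in female kidneys and 297, 381 and 482 CPM in male kidneys, with no overlap. Its log2 fold change, female over male, was -1.29 (SE 0.10, adjusted p = 1.07e-11). *Elovl6* went the other way, with 41.6, 99.5 and 213.5 CPM in female kidneys and 17.3, 24.4 and 52.1 CPM in male kidneys (1.75, SE 0.19, adjusted p = 1.27e-07). *Scd2* had 82.6, 157 and 211 CPM in females and 72.2, 97.2 and 147 CPM in males (0.49, adjusted p = 0.0131). All 3 calls held in each of the 22 fits that left out 1 mouse. Of the 21 wider pathway genes tested in kidney, 8 were lower and 2 higher in females, among them *Acss2* at -0.94 (adjusted p = 2.371e-09), *Lpin1* at -0.42, *G6pdx* at -0.41, *Mlx* at -0.36 and, higher, *Pklr*, pyruvate kinase, at 0.53 (adjusted p = 0.003).

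Subscapular fat called 0 of 10 members by sex, where 15.4% of all genes passed. *Fasn* had 2253, 8266 and 43257 CPM in females and 346, 5875 and 43774 CPM in males, an estimate of -0.62 with a 95% interval of -2.17 to 0.94, so neither a higher nor a lower female level could be shown at this spread. The brown adipocyte marker sum there was 0.501, 447 and 2169 CPM in females and 10.2, 1211 and 11133 CPM in males. Of 20 wider pathway genes, *Fads1*, a fatty acid desaturase, was higher in females at 1.53 (adjusted p = 0.0015), and *Lpin1* (-1.06, adjusted p = 0.0331) and *Nr1h3*, which encodes LXR alpha, (-0.64, adjusted p = 0.0348) were lower. In the other 5 tissues 0 members passed, where 4.67% of genes passed in spleen, 0.605% in bone marrow, 0.293% in skin, 0.187% in heart and 0.132% in lung. The nearest was *Scd2* in skin, at 0.81 (unadjusted p = 0.0118, adjusted p = 0.369).

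**Figure D4:**
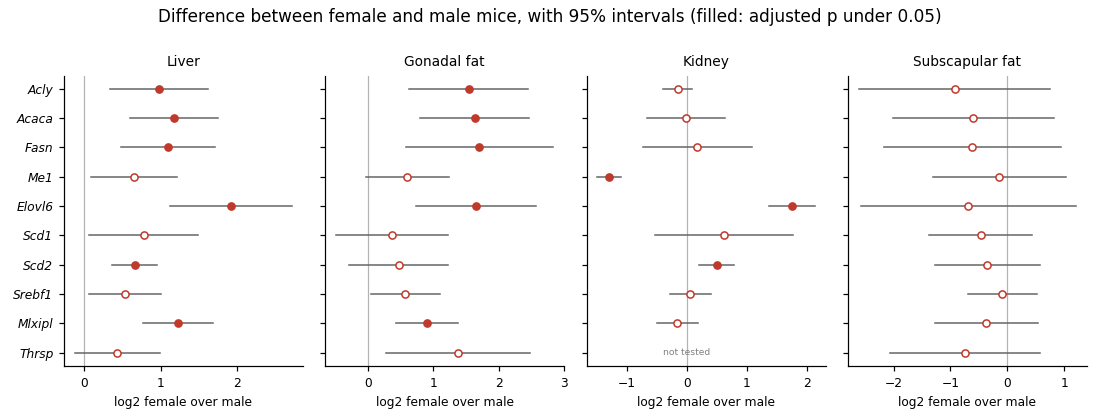
Log2 fold change of each member, female over male, with its 95% interval in liver, gonadal fat, kidney and subscapular fat (edgeR, treatment as covariate); filled symbols passed an adjusted p of 0.05. Liver has 6 filled symbols and gonadal fat 5, all above 0, kidney has *Elovl6* (1.75) and *Scd2* above and *Me1* (-1.29) below 0, and subscapular fat has none.

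Heart, kidney and lung carry fat on or in the dissected organ, and the members were therefore related to the adipocyte marker sum of each library. The slope gives the log2 change of a member per log2 unit of the sum, with sex and arm as covariates, so that 1 is a level in proportion to the markers. In heart all 9 members tested had positive slopes that passed, where 27.8% of all genes passed in either direction and 14.5% upward. *Fasn* was steepest at 0.90 (adjusted p = 2.09e-10), followed by *Scd1* at 0.76, *Thrsp* at 0.65, *Acaca* at 0.62 and *Acly* at 0.61, and *Srebf1* and *Mlxipl* were shallow at 0.28 and 0.27. Control female 22 had 39812 CPM of *Fasn*, 15682 of *Scd1* and 2049 of *Thrsp*, against 23.7 to 141 CPM of *Fasn* in the 18 hearts with the least. Without that library and aPAPPA male 56, 6 members still passed (10.8% of genes): *Fasn* at 0.67 (adjusted p = 0.0011), *Scd1* at 0.50, *Acaca* at 0.37, *Acly* at 0.31, *Thrsp* at 0.29 and *Scd2* at 0.25. *Me1* (-0.06), *Srebf1* (0.07) and *Mlxipl* (0.08) no longer did. The hearts left with the most *Fasn* were those of control male 61 (944 CPM, adipocyte sum 109 CPM) and aPAPPA male 58 (558 and 135 CPM). Slopes without these hearts are not given here.

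In kidney 4 of 9 members passed where 1.32% of genes did. *Fasn* had a slope of 0.61 (adjusted p = 8.502e-05), *Acaca* of 0.44 (adjusted p = 5.164e-06), *Scd1* of 0.62 (adjusted p = 0.0196) and *Acly* of 0.14 (adjusted p = 0.0374). Without the 2 libraries farthest from the median sum, *Fasn* (0.67), *Acaca* (0.49) and *Acly* (0.19) passed (0.426% of genes) and *Scd1* (0.23) did not. The individual kidneys differ in kind. Control male 37 had an adipocyte sum of 742 CPM and a brown sum of 4.34 CPM, with 420 CPM of *Fasn* and 2193 of *Scd1*, whereas aPAPPA female 33 had an adipocyte sum of 232 and a brown sum of 332 CPM, with 1225 CPM of *Fasn*.

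In lung all 10 members passed, where 17.7% of genes did, and 9 slopes were positive: *Thrsp* at 0.66, *Elovl6* at 0.32, *Scd1* at 0.29, *Mlxipl* at 0.29, *Fasn* at 0.25, *Me1* at 0.22, *Acaca* at 0.21, *Srebf1* at 0.11 and *Acly* at 0.10. *Scd2*, the member that is highest in lung, was the one with a negative slope, at -0.11. Without the library of control male 68, in which lung RNA was nearly missing, 7 of the 9 members still tested passed (3.97% of genes), and *Scd2* was at -0.06 and no longer passed. Without control male 37 as well, whose lung held an adipocyte sum of 1334 CPM, 3729 CPM of *Fasn* and 13534 of *Scd1*, *Fasn* alone passed (0.18, adjusted p = 0.0425, 1.49% of genes). The lung of aPAPPA female 33 had an adipocyte sum of 292 CPM with 1892 CPM of *Fasn* but 923 of *Scd1*, the lowest *Scd1* of all aPAPPA lungs.

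The wider pathway list also moved with the adipocyte sum. In heart 10 of 19 genes had positive slopes that passed and 1, *Mid1ip1*, a negative one (-0.16), and the smallest p-values were those of *G6pdx* (0.43), *Pgd* (0.45), *Agpat2* (0.41), *Dgat1* (0.24) and *Elovl5* (0.21). *G6pdx* and *Pgd* encode the NADPH-making enzymes of the pentose phosphate pathway, and AGPAT2 and DGAT1 act in triglyceride assembly. In kidney 2 of 21 passed, *Agpat2* (0.35) and *Dgat2* (0.19), and in lung 12 of 20, led by *Agpat2* (0.36), *Lpin1* (0.25), *Dgat2* (0.67), *Slc25a1* (0.24) and *Dgat1* (0.21).

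**Figure D5:**
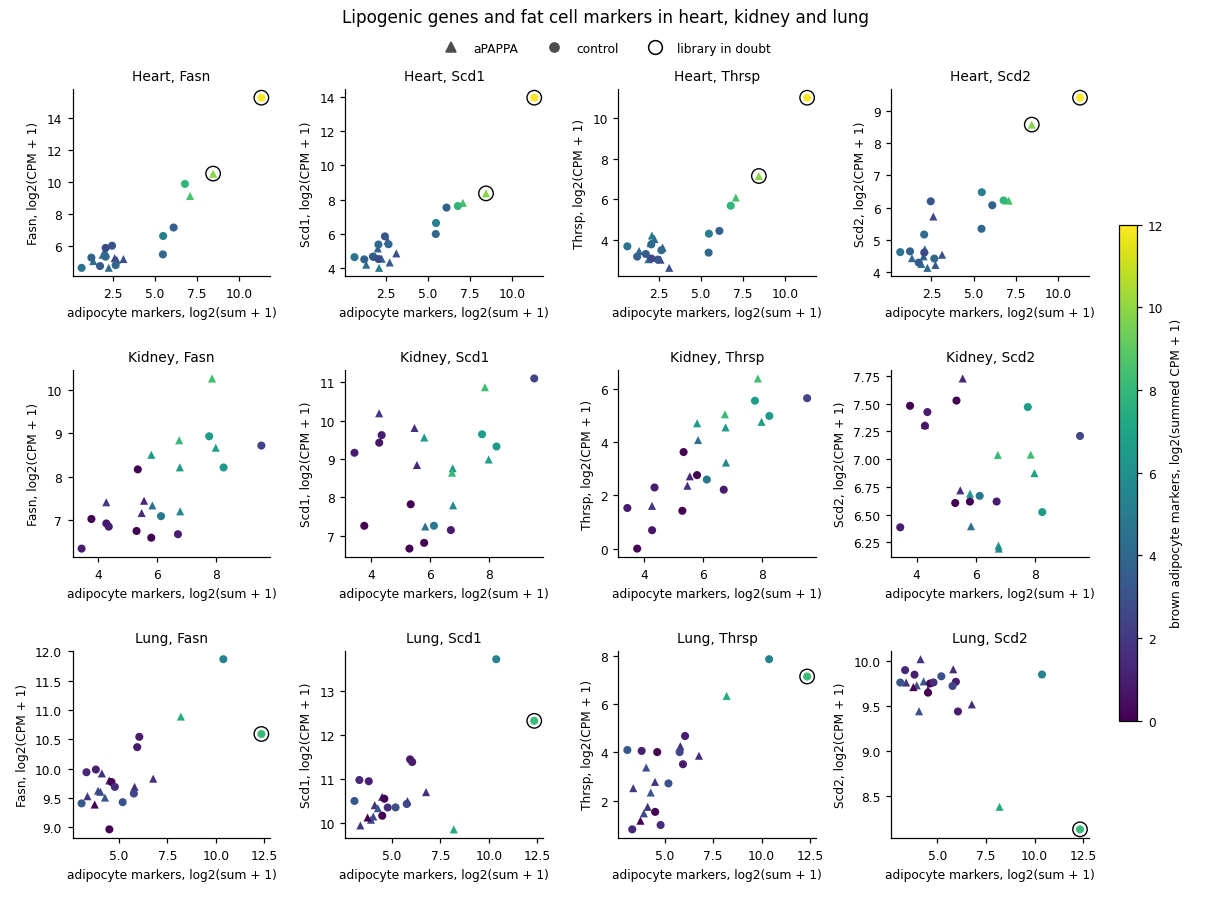
*Fasn*, *Scd1*, *Thrsp* and *Scd2*, as log2(CPM + 1), against the adipocyte marker sum, as log2(CPM + 1), in heart, kidney and lung; triangles are aPAPPA and circles control libraries, colour gives the brown adipocyte marker sum and rings mark libraries that stood apart. *Fasn* climbs with the marker sum in all 3 tissues (slopes of 0.90, 0.61 and 0.25), and *Scd2* has a slope of -0.11 in lung (-0.06 without control male 68).

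How much of a member the fat would bring was worked out by arithmetic, with no test: each library's adipocyte marker sum was taken as a share of the median of a control fat depot, and that depot's median member level was scaled by it. With gonadal fat as the depot, the expected level was a median of 1.90% of the measured *Fasn* in heart, 6.02% in kidney and 0.550% in lung. With subscapular fat, whose *Fasn* is higher, the same medians were 23.5%, 74.3% and 6.79%. *Scd1* gave 17.2% in heart, 29.1% in kidney and 1.96% in lung by gonadal fat and 56.7%, 96.2% and 6.48% by subscapular fat. For *Thrsp* in kidney it was 24.7% by gonadal fat and 123% by subscapular fat, an expected level above the measured one. *Scd2* stayed low by either depot, at 0.764 to 1.77% in heart, 2.51 to 5.82% in kidney and 0.111 to 0.257% in lung. By subscapular fat at least 50% of the measured level was reached for *Fasn* in 14 of 22 kidneys, 5 of 22 hearts and 2 of 22 lungs. The choice of depot thus moves the answer by more than 10-fold for *Fasn*, and which depot the admixed fat resembles was not measured.

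The adipocyte marker sum, called white here, and the brown marker sum were also entered together, a fit chosen after the values were seen. Both sums were high in the same hearts, at 2543 and 4217 CPM in control female 22 and 349 and 892 CPM in aPAPPA male 56. The adipocyte sum is thus not a measure of white fat alone, and the 2 slopes do not separate white from brown fat. In kidney the white slope called *Fasn* (0.44, against 0.61 alone) and *Acaca* (0.29, against 0.44), with 1.32% of genes called. *Scd1* kept its size, at 0.64 against 0.62, and missed the threshold (adjusted p = 0.0518), and the brown slope called 0 members (0.00871% of genes). In heart the brown slope called *Fasn* (0.65), *Thrsp* (0.67) and *Acaca* (0.46), with 0.08% of genes called, and the white slope 0 (0.0178%). Without the 2 hearts in doubt the calls changed sides, with *Fasn*, *Scd1*, *Acaca*, *Acly* and *Scd2* called for white (1.52%) and 0 for brown (0.0178%), where *Fasn* had a brown slope of 0.57 (adjusted p = 0.0532). In lung the white slope called *Acaca* (0.20) and *Me1* (0.20) with 0.768% of genes called, and *Fasn* (0.22, against 0.25 alone, adjusted p = 0.059) and *Scd1* (0.33, against 0.29) were about as steep as before without being called. In subscapular fat, where the brown sum reached 9695 CPM in aPAPPA and 11133 CPM in control mice, the white slope called 0 members (28.8% of genes) and the brown slope 7 of 10 (20.2% of genes, 13.9% upward). These were *Elovl6* at 0.46 (adjusted p = 0.0046), *Acly* at 0.38, *Fasn* at 0.33 (adjusted p = 0.031), *Acaca* at 0.31, *Thrsp* at 0.29, *Me1* at 0.22 and *Mlxipl* at 0.21, whereas *Scd1* (0.14), *Scd2* (0.13) and *Srebf1* (0.06) did not pass. The treatment term called 0 members in heart, kidney and lung at equal adipocyte level (0% of genes in each), and 0 with both marker levels in the fit.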

How the data were processed

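Whole tissues were extracted and made into stranded total RNA libraries, according to the labels' protocols. The submitters' processing notes name FastQC 0.11.5, Salmon and the build mm10. The deposited values, made by the authors, are counts in whole numbers for 56332 features. The rounding of Salmon's estimates, the annotation and any filter are not stated in the files or labels. Gene positions and exon lengths come from GENCODE vM21, which holds 47462 of 47712 Ensembl identifiers.

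CPM was computed from the deposited counts after setting aside 9 features whose share averaged 0.9% or more. The main test was the quasi-likelihood F-test of edgeR 4.0.16 in R 4.3.3 (TMM, filterByExpr, robust, two-sided), adjusted by Benjamini-Hochberg over all genes tested, with a threshold of 0.05. DESeq2 1.42.0 was an alternative, and limma 3.58.1 tested means over tissues. The SE is the log2 fold change over the root of F. Correlations used 100000 permutations within sex and arm. The steps were tested on simulated data. A mouse was 1 replicate. The labels give the same mouse numbers in every tissue, so the mouse pairs tissues but not arms or sexes, and a fit of the tissue contrasts with the mouse as a block was an alternative. Other alternatives changed the scaling, filter, covariates or pseudocount, or left out each mouse or the 5 libraries in doubt.

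The members and gene lists were chosen with earlier results of these data known. Wider pathway genes are named where they passed, by smallest p, and otherwise the 2 with the smallest p are given.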

Additional observations from a re-analysis of the deposited data

Results flagged for a closer look

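In each tissue and for each member, the highest and lowest of the 10 aPAPPA libraries were compared with the rest of that arm, 90 groups in all. On the scale of log2(CPM + 1), 15 values stood apart from their nearest neighbour by an unusually large part of the range. Chance flags about 1 in 20 groups, or 5%.

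The skin library of aPAPPA female 36, the shallowest of the study, gave 6 of them, all low: *Fasn* at 239.7 CPM (arm median 519.6), *Acaca* at 119.8 (228.9), *Acly* at 29.96 (272.6), and *Scd2*, *Srebf1* and *Me1* each at 0 CPM (200.03, 227.3 and 116.3). With 33377 counts outside the abundant features, a count of 0 there carries little weight.

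The lung of aPAPPA female 33 was high in *Fasn* at 1892 CPM (median 805) and *Acaca* at 395.8 (253.9) and low in *Scd2* at 332.6 (841.7), and the kidney of the same mouse was high in *Acaca* at 443.7 CPM (122.7). Adipocyte sums in these libraries were 292 CPM in lung and 232 CPM in kidney, the brown sum in the kidney was 332 CPM, and their part was not tested. The heart of aPAPPA male 56 was high in *Scd2* at 380.7 CPM (21.97) and *Srebf1* at 139.01 (23.79), beside a brown marker sum of 892 CPM. The other values were *Srebf1* at 54.07 CPM in the lung of aPAPPA female 36 (111.4), *Scd1* at 239.9 CPM in the spleen of aPAPPA female 6 (375.5) and *Acly* at 168.3 CPM in the bone marrow of aPAPPA male 56 (117.9).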

How the results depend on the processing

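The antibody called 0 members in each tissue under all 247 fits that changed 1 choice, and at equal adipocyte level and over all tissues it did so under every alternative tried. *Me1* in heart turned to 0.0056 without the libraries in doubt. Of the counts by sex, gonadal fat moved, to 3 members with no filter on low counts and to 3 to 6 when 1 mouse was left out (3 without mouse 6), while liver had 5 to 8 and kidney 3 to 4. By DESeq2 the wider pathway list had 3 calls by sex in gonadal fat against 1 by edgeR, and 7 in subscapular fat against 3, and 1 by treatment in bone marrow against 0; the cause was not tested. Slopes on the adipocyte sum called 0 members in heart, 2 in kidney and 2 in lung when brown markers were fitted as well, although some uncalled slopes stayed about as large (*Scd1* at 0.64 in kidney and 0.33 in lung, *Fasn* at 0.22 in lung), and 1 in lung without the 2 libraries farthest from the median. The slope of *Me1* in heart was -0.0594 without the libraries in doubt, which are also the 2 farthest from the median, and that of *Srebf1* in lung was -0.0049 without the 2 farthest; the cause was not tested. The expected share of *Fasn* was 23.5% in heart, 74.3% in kidney and 6.79% in lung with subscapular fat as the depot. Pairing the tissues by mouse as a block gave 288 member contrasts against 289, of which 16 were lost, 15 gained and 4 reversed. Levels of single members, and the part of them that fat would bring, moved in 35 of 36 values recomputed with TMM scaling over all libraries or the other depot. *Thrsp* in kidney, skin, spleen and bone marrow, *Mlxipl* in skin and spleen, *Me1* in spleen and bone marrow and *Elovl6* in heart did not pass the filter on low counts. Whether depth outside the abundant features or a low level in the tissue was the reason was not tested.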

Other observations

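In subscapular fat, by correlation over the 22 mice after removing sex and arm means, the brown adipocyte marker sum went with *Elovl6* at r = 0.75 (rho = 0.74, adjusted permutation p = 0.0078 over 7 relations), with *Fasn* at r = 0.56 (adjusted permutation p = 0.0927) and with *Scd1* at r = 0.08. These relations were chosen after the values were seen.

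In skin the desaturases ran against each other among mice only when 1 shallow library was left out. Over the 22 libraries *Scd2* and *Scd1* had r = -0.04 (adjusted permutation p = 0.921), and without the shallow library of aPAPPA female 36 r was -0.74 (rho = -0.71, unadjusted permutation p = 0.00082), and -0.67 without the 2 farthest mice as well. *Scd2* and *Elovl6* gave r = 0.32 with all libraries and -0.66 without that one. The relation was chosen after the values were seen and rests on leaving out that library, and whether reads divided between *Scd1* and *Scd2* contribute was not tested. The pieces of skin also differed. Control female 11, highest in *Scd2* (815 CPM), had keratinocyte and sebocyte marker sums of 22983 and 45.6 CPM. Control female 4, highest in *Scd1* (2342 CPM), had sums of 13024 and 173 CPM. The part of such differences was not tested.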
